A study of Homo sapiens with 24 samples.

Results

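Genes of oxygen sensing, glycolysis and the hypoxia response were followed in the human Ewing sarcoma line ES8 and in ES8-1F2, a derivative in which SLFN11 had been knocked out with CRISPR/Cas9. The set is a list of 40 genes given by name and chosen with earlier results of these data known. Of these, 36 had a probe set named for them and were read on all 24 arrays, out of 17687 genes in all. SLC16A1, SLC16A3, PFKFB4 and CA9 were not analysed here.

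Cells of each line were left unirradiated (0 Gy) or given 2 Gy of gamma radiation, and RNA was taken 4 h or 24 h later. This gave 8 groups of 3 arrays: parental or knockout cells, at each dose and each time. The knockout is represented by 1 derivative line, so loss of SLFN11 and other differences between the lines cannot be told apart. Both lines were grown in the same serum-supplemented medium, and the labels name no low-oxygen or glucose-deprived group. The labels do not say whether replicates came from separate cultures. All p-values therefore reflect the spread among these samples alone, and it may be technical.

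When oxygen is plentiful, prolyl hydroxylases of the EGLN family mark the HIF alpha subunits, HIF1A and EPAS1, for destruction. When it is scarce, an alpha subunit pairs with ARNT and binds a short DNA core in its target genes. These include glucose transporters, most glycolytic enzymes, PDK1, and genes of pH control, mitophagy and collagen modification. HIF alpha subunits are controlled largely at the protein level, which arrays do not measure. Tumour cells often run glycolysis at a high rate even with oxygen present.

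The targeted gene was examined first. SLFN11 signal ran from 8.03 to 8.63 (log2, median 8.30) on the 12 parental arrays and from 6.33 to 7.07 (median 6.97) on the 12 knockout arrays. The mean difference was −1.47 (SE 0.065). The knockout signal stayed above background, set on each array at the 95th percentile of its negative controls, which lay between 3.46 and 3.81. All 7 measured Ewing sarcoma markers were above background on every array. Of markers of other cells, 2 of 5 epithelial (KRT8 and KRT19), 1 of 4 blood (CD14) and 1 of 4 endothelial (VWF) genes were above it on every array.

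The promoters of 33 measured members were matched to RefSeq windows running from 250 bases before to 50 bases after the gene start (GRCh38.p14). The core bound by HIF was searched as ACGTG or GCGTG on both strands, so that CACGT and CACGC also count. Both strands of CACGTG match, giving overlapping matches. At least 1 core stood in 24 of the 33 windows (72.7%), against 56.3% of 14250 windows of genes tested and 48.4% of all 35116 windows. A match is a description of the letters and not a binding site. The windows below belong to 4 of the genes that differed most between the lines and to LDHA, a classical HIF target that was not called, with cores in capitals.
ADM, higher in knockout cells, chr11:10304823-10305122, plus strand: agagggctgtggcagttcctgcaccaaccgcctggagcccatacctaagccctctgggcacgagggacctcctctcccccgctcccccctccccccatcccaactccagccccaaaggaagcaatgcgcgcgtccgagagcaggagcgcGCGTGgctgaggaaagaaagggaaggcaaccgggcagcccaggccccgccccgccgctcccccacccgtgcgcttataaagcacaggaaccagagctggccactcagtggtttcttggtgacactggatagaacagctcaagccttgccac
ENO2, lower, chr12:6914330-6914629, plus strand: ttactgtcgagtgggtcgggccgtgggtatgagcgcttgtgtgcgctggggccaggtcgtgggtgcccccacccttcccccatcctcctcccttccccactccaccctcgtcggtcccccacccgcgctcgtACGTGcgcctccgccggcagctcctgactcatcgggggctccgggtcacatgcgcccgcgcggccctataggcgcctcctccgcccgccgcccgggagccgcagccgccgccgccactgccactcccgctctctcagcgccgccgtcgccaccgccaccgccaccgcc
ERO1A, lower, chr14:52695509-52695808, minus strand: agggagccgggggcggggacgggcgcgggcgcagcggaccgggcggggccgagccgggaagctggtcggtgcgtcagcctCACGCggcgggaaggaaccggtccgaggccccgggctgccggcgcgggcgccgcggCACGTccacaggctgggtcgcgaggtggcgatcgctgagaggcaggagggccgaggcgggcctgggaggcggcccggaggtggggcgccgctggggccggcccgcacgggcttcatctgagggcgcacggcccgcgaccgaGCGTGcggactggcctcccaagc
HK1, higher, chr10:69269750-69270049, plus strand: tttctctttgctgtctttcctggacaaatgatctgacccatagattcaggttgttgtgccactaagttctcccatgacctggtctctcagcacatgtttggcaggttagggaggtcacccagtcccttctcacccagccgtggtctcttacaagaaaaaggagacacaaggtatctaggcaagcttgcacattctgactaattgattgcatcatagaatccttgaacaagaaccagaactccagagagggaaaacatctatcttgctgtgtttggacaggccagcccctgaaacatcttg
LDHA, not called, chr11:18394313-18394612, plus strand: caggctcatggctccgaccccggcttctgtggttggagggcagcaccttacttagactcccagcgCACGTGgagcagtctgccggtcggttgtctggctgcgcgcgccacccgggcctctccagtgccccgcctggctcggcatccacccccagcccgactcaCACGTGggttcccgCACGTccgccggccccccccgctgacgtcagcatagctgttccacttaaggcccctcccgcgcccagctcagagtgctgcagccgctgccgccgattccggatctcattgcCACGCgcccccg

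ADM and ENO2 each hold 1 core, starting at positions −101 and −118 from the gene start, and they differed between the lines in opposite directions. ERO1A holds 3 cores, HK1 holds 0 and LDHA holds 6. The table gives a single start per gene, and HK1 is known to have alternative promoters. These 5 windows were chosen with the line differences and core counts known, so nothing on their relation can be read from them.

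The first question was whether the genes differed between the lines. The members moved in both directions: HK1, ADM and SLC2A3 were higher in knockout cells, and ENO2, ERO1A, PFKM and PFKP were lower. Averaged over the 4 conditions of dose and time, 10 members were higher and 8 lower, of 36. A gene was called where limma gave an adjusted p (Benjamini-Hochberg, all 17687 genes) below 0.05. The called share of members was 50.0%, against a background of 30.4% of all genes (15.8% higher, 14.6% lower). Because the list was chosen with earlier results known, shares above those of all genes, here and below, are no test of the set. Among genes above background on all arrays, 18 of 33 members (54.5%) and 39.4% of 11570 genes were called. The median difference of the members was 0.05, against −0.02 over all genes, and the median size was 0.15 against 0.11.

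A called difference of at least 0.5 log2 units was seen in 7 of the 36 members. In 3 it was upward (all genes: 4.42%) and in 4 downward (all genes: 3.51%). The other 11 called members differed by less than 0.5. For 10 members the 95% interval of the mean difference lay within 0.2 of 0. In 8 members the 12 parental and 12 knockout arrays did not overlap at all, 4 in each direction (all genes: 5.65%). The same 8 were called in the same direction in all 4 conditions (22.2% of members, 6.38% of all genes, and 8.39% of genes above background on all arrays). They were HK1, ADM, SLC2A3 and PGAM1, which were higher, and ENO2, ERO1A, PFKM and PFKP, which were lower.

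**Figure D1:**
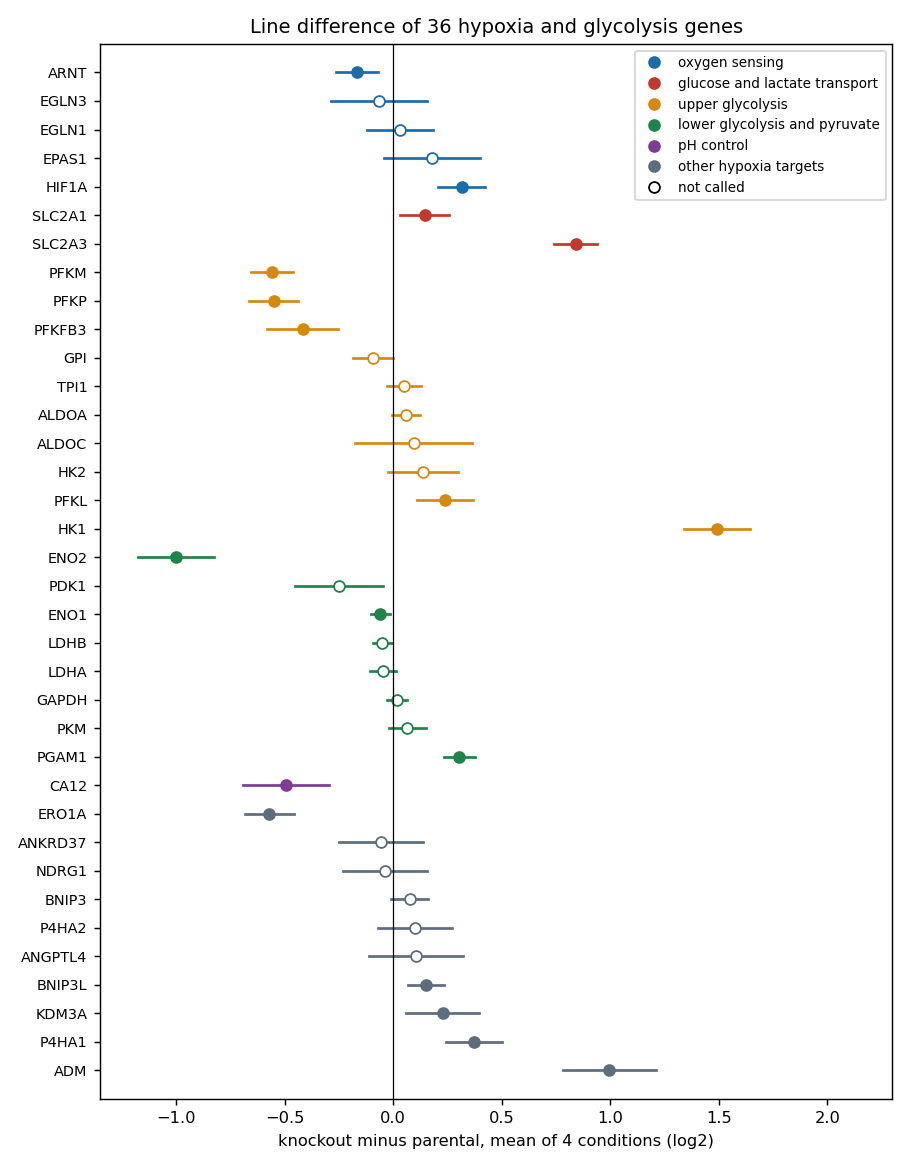
Mean knockout-minus-parental difference over 4 conditions (log2, x axis) with its 95% interval for each of 36 genes (y axis), grouped and coloured by role. Filled points were called in the limma fit, and HK1 at 1.49 and ENO2 at −1.0 lie at the extremes.

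Condition by condition, 4 to 5 members were higher and 4 to 6 lower. At 0 Gy and 4 h, 4 members were higher (all genes: 6.27%) and 4 lower (5.5%), with 11.8% of all genes called. At 0 Gy and 24 h, 5 were higher (6.47%) and 6 lower (5.09%), with 11.6% of all genes called. At 2 Gy and 4 h, 5 were higher (6.87%) and 5 lower (5.13%), and at 2 Gy and 24 h, 5 were higher (6.29%) and 6 lower (5.68%), with 12% of all genes called at each time. Of the 36 members, 23 were called in none of the 4 conditions.

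Among the oxygen-sensing genes, 1 of 5 was higher (all genes: 15.8%) and 1 lower (all genes: 14.6%) in knockout cells. HIF1A, the oxygen-regulated subunit, ran from 8.17 to 8.97 (median 8.73) in parental and from 8.74 to 9.14 (median 9.05) in knockout cells, so the lines overlapped. Its mean difference was 0.32 (SE 0.053, limma adjusted p = 1.18e-05). By condition HIF1A was called at 2 Gy and 4 h, with parental values of 8.62, 8.17 and 8.50 and knockout values of 9.03, 8.74 and 8.82. That difference was 0.43 (adjusted p = 0.0041), and without parental replicate 2 it was 0.31 (adjusted p = 0.071). That array has the narrowest spread of signal of all 24. With the replicate number as a block, HIF1A was called in the other 3 conditions too: 0 Gy and 4 h (0.26, adjusted p = 0.0256), 0 Gy and 24 h (0.27, adjusted p = 0.0210) and 2 Gy and 24 h (0.30, adjusted p = 0.0096). A fit of only the compared arrays also called these 3 (adjusted p from 0.0462 to 0.0485). At 0 Gy and 24 h same-numbered replicates hardly deviated together (correlations of their deviations 0.06 to 0.07), so the block has little ground there.

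ARNT, the constitutive partner subunit, ran from 7.76 to 8.19 (median 7.92) in parental and from 7.67 to 7.89 (median 7.76) in knockout cells. It was lower by a mean of −0.17 (SE 0.047, limma adjusted p = 0.0063). By condition it was called only at 2 Gy and 24 h (−0.35), and not without parental replicate 1 (−0.27) or parental replicate 3 (−0.31) of that condition. EPAS1, the second alpha subunit, was dim, above background on 8 of 12 parental and 10 of 12 knockout arrays, with medians of 3.80 and 3.96. EGLN1 (0.03) and EGLN3 (−0.07), hydroxylases that act on the alpha subunits, were not called, and EGLN3 was above background on 11 parental and 9 knockout arrays.

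Both glucose transporters were higher in knockout cells, by very different amounts. In parental cells SLC2A3, the neuronal-type high-affinity glucose transporter, read 7.16, 7.07 and 7.10 at 0 Gy and 4 h, 6.92, 7.12 and 7.0 at 0 Gy and 24 h, 7.32, 7.12 and 7.06 at 2 Gy and 4 h, and 7.22, 7.14 and 7.02 at 2 Gy and 24 h. In the same order, knockout cells read 8.11, 7.88 and 7.86, then 7.93, 7.71 and 7.84, then 7.89, 7.91 and 7.90, then 8.13, 8.09 and 8.08. Every knockout array stood above every parental array, and the mean rise was 0.84 (SE 0.049), or 1.79-fold (limma adjusted p = 1.25e-15). SLC2A14, a near-identical neighbour of SLC2A3, differed by 0.77 (SE 0.046), and the probe sets may not separate the 2 genes.

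SLC2A1, the widely expressed basal glucose transporter, had medians of 7.73 in parental and 7.92 in knockout cells, with overlapping ranges (7.60 to 7.98 and 7.71 to 8.12). Its mean difference of 0.15 (SE 0.055, limma adjusted p = 0.0436) lay close to the threshold. Leaving out 1 array at a time, the call was lost for 16 of the 24 arrays, with differences from 0.11 to 0.15 and adjusted p up to 0.110. It was also lost without the intensity trend (adjusted p = 0.0754) and with quantile normalization (0.115).

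Upper glycolysis runs from glucose to triose phosphates, and here isoforms of the same step moved apart. Of 10 genes, 2 were higher (HK1 and PFKL) and 3 lower (PFKM, PFKP and PFKFB3), against 15.8% and 14.6% of all genes. HK1, the mitochondria-bound hexokinase of most tissues, had the largest difference of all members. In parental cells HK1 read 6.0, 5.89 and 5.82 at 0 Gy and 4 h, 6.12, 5.91 and 5.74 at 0 Gy and 24 h, 6.07, 5.58 and 6.11 at 2 Gy and 4 h, and 6.45, 5.90 and 5.80 at 2 Gy and 24 h. Knockout cells read 7.37, 7.66 and 7.53, then 7.41, 7.28 and 7.15, then 7.38, 7.49 and 7.60, then 7.46, 7.54 and 7.43. The lowest knockout array exceeded the highest parental one. HK1 rose by a mean of 1.49 (SE 0.074), or 2.81-fold (limma adjusted p = 2.30e-17), and it ran from 1.36 to 1.62 over the 4 conditions. HK2, the inducible hexokinase typical of glycolytic tumours, was not called, with medians of 6.09 and 6.31 and a difference of 0.14.

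The step made by phosphofructokinase, the main control point of glycolysis, showed its muscle and platelet forms lower and its liver form higher. PFKM read 8.13, 8.34 and 8.48 in parental cells at 0 Gy and 4 h, 8.34, 8.42 and 8.35 at 0 Gy and 24 h, 8.25, 8.27 and 8.39 at 2 Gy and 4 h, and 8.33, 8.27 and 8.31 at 2 Gy and 24 h. Knockout cells read 7.59, 7.67 and 7.81, then 7.95, 7.75 and 7.96, then 7.70, 7.90 and 7.81, then 7.80, 7.66 and 7.60. No arrays of the lines overlapped, and the mean difference was −0.56 (SE 0.047, limma adjusted p = 1.58e-11), a 1.47-fold fall.

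PFKP read 8.58, 8.86 and 8.66 in parental cells at 0 Gy and 4 h, 8.95, 8.91 and 8.74 at 0 Gy and 24 h, 8.90, 9.14 and 8.97 at 2 Gy and 4 h, and 8.89, 9.05 and 8.81 at 2 Gy and 24 h. Knockout cells read 8.09, 8.38 and 8.45, then 8.36, 8.29 and 8.26, then 8.04, 8.48 and 8.51, then 8.28, 8.49 and 8.21. The closest pair of arrays, 8.51 against 8.58, still did not overlap. The mean difference was −0.55 (SE 0.056, limma adjusted p = 7.87e-10), a 1.46-fold fall. At 0 Gy and 4 h the difference was −0.39, and it was no longer called without parental replicate 2 (−0.31) or knockout replicate 1 (−0.28) or without the intensity trend (adjusted p = 0.0571).

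PFKL rose by 0.24 (SE 0.064, limma adjusted p = 0.00358), from a median of 7.28 to 7.46, with overlapping ranges. PFKFB3, which makes the activator of phosphofructokinase, fell by 0.42 (SE 0.081, limma adjusted p = 1.03e-04), from a median of 5.73 to 5.22. By condition PFKFB3 was called at 24 h, at 0 Gy (−0.65) and at 2 Gy (−0.51). Leaving out parental replicate 2 (−0.49), parental replicate 3 (−0.45), knockout replicate 1 (−0.42) or knockout replicate 2 (−0.48) ended the call at 2 Gy. The remaining enzymes of this stretch were not called: GPI differed by −0.09, ALDOA by 0.06, ALDOC by 0.10 and TPI1 by 0.05. Array weights brought ALDOA (adjusted p = 0.0157) and HK2 (0.0494) past the threshold, and centring did so for ALDOA (0.0480).

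Lower glycolysis and pyruvate handling showed small differences for most enzymes and a fall of the neuronal enolase. Of 8 genes, 1 was higher (PGAM1) and 2 lower (ENO2 and ENO1), against 15.8% and 14.6% of all genes. ENO2, the neuronal enolase, read 5.35, 4.85 and 5.02 in parental cells at 0 Gy and 4 h, 5.07, 5.16 and 4.84 at 0 Gy and 24 h, 5.45, 5.51 and 5.38 at 2 Gy and 4 h, and 5.0, 5.21 and 4.89 at 2 Gy and 24 h. Knockout cells read 4.10, 4.20 and 3.79, then 4.28, 4.21 and 4.17, then 4.37, 4.32 and 3.87, then 4.23, 4.17 and 4.01. Every knockout array was below every parental array. The mean difference was −1.0 (SE 0.085, limma adjusted p = 1.86e-11), a 2.00-fold fall. In knockout cells ENO2 was dim, from 3.79 to 4.37, though above background (3.46 to 3.81) on all 12 arrays.

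PGAM1, the phosphoglycerate mutase of most tissues, ran from 9.88 to 10.2 in parental and from 10.2 to 10.4 in knockout cells, without overlap. It rose by 0.31 (SE 0.034, limma adjusted p = 6.89e-09). PGAM4, a near copy of PGAM1, differed by 0.30 (SE 0.079), and the probe sets may not separate them. At 2 Gy and 4 h the PGAM1 call was lost without the intensity trend (adjusted p = 0.0511).

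GAPDH ran from 11.82 to 11.89 in parental and from 11.73 to 11.94 in knockout cells and differed by 0.02 (95% interval −0.03 to 0.06). LDHA and LDHB, the subunits of lactate dehydrogenase, both differed by −0.05, and PKM, the pyruvate kinase of tumour cells, by 0.07. None of these was called, but array weights brought LDHA (adjusted p = 0.0414) and LDHB (0.0461) past the threshold. So did the replicate block for LDHB (0.04997) and leaving out parental replicate 2 at 2 Gy and 4 h for LDHA (−0.07). ENO1, the ubiquitous enolase, differed by only −0.06 (SE 0.022, limma adjusted p = 0.0415), and its call was lost on leaving out any of 13 of the 24 arrays (−0.05 to −0.06). It was also lost without the intensity trend (adjusted p = 0.277), with array weights (0.0531), with quantile normalization (0.0975) and with centred arrays, where the difference was −0.03. PDK1, which keeps pyruvate out of the mitochondria, differed by −0.25 and missed the threshold (limma adjusted p = 0.0541), although leaving out any of 6 of the 24 arrays brought it past (−0.27 to −0.31). Array weights (adjusted p = 0.0287), the replicate block (0.0386) and leaving out dim genes (0.0447) did so too. Several of these genes have processed pseudogenes whose transcripts the probe sets may also detect.

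**Figure D2:**
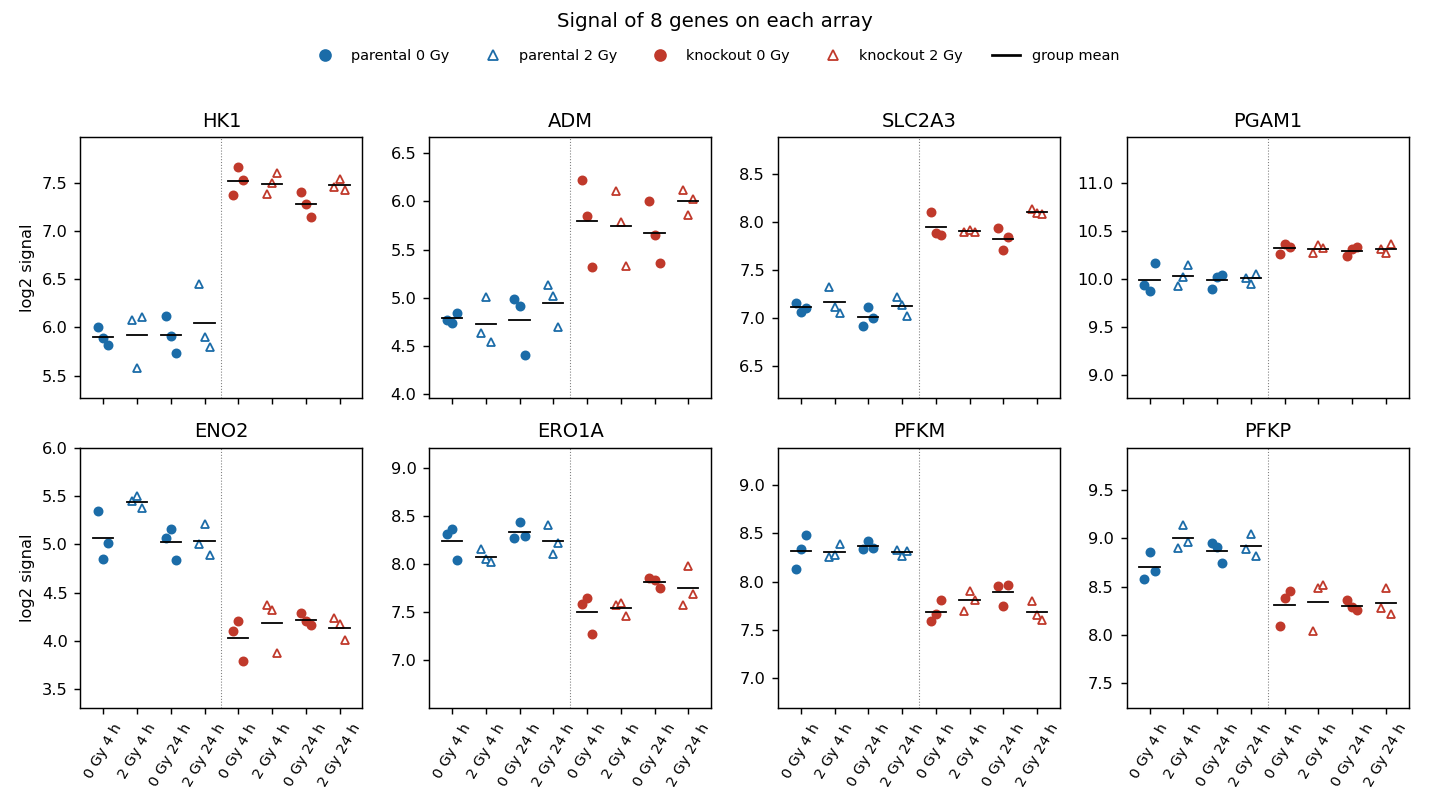
Log2 signal (y axis) of the 8 genes whose lines did not overlap, on each of 24 arrays by dose and time (x axis). Points are arrays and black lines are means of 3; knockout cells (red) lie above parental cells (blue) in the upper row and below them in the lower row.

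CA12, a cell-surface carbonic anhydrase that helps to control pH, was lower in knockout cells, from a median of 5.02 to 4.52, with overlapping ranges. The mean difference was −0.49 (SE 0.097, limma adjusted p = 1.27e-04). It was called at 0 Gy and 24 h (−0.68) and at 2 Gy and 4 h (−0.66). Leaving out parental replicate 2 (−0.50) or knockout replicate 3 (−0.55) ended the first call. Leaving out parental replicate 2 (−0.53), knockout replicate 1 (−0.62) or knockout replicate 2 (−0.67) ended the second.

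**Figure D3:**
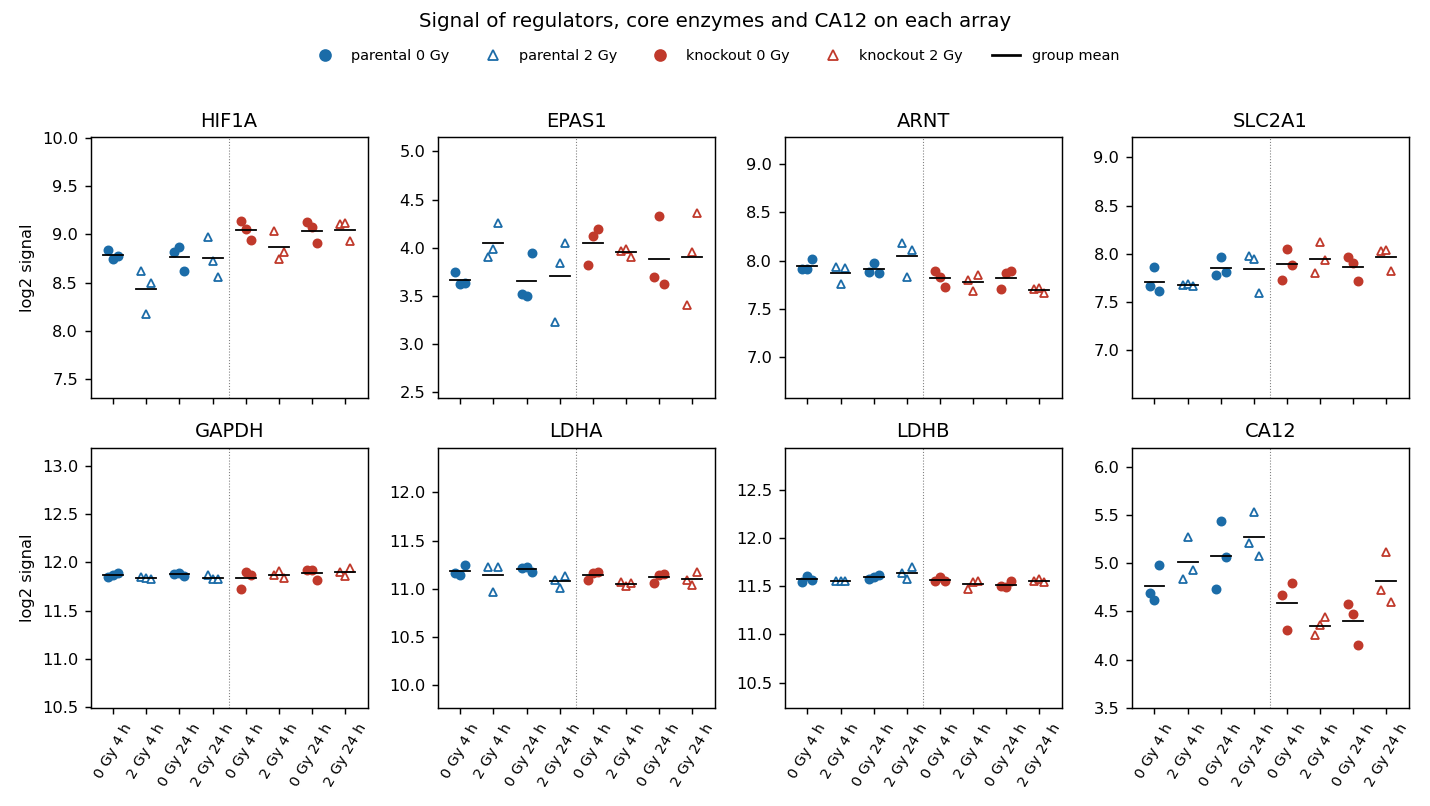
Log2 signal (y axis) of HIF1A, EPAS1, ARNT, SLC2A1, GAPDH, LDHA, LDHB and CA12 on each of 24 arrays by dose and time (x axis), with group means as black lines. The mean line differences of GAPDH, LDHA and LDHB were 0.02, −0.05 and −0.05, while EPAS1 lay near background and scattered between 3.23 and 4.36.

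The other hypoxia targets comprised 10 genes, of which 4 were higher (all genes: 15.8%) and 1 lower (all genes: 14.6%). ADM encodes adrenomedullin, a secreted vasodilator peptide. It read 4.77, 4.74 and 4.84 in parental cells at 0 Gy and 4 h, 4.98, 4.91 and 4.40 at 0 Gy and 24 h, 4.63, 5.01 and 4.54 at 2 Gy and 4 h, and 5.13, 5.02 and 4.70 at 2 Gy and 24 h. Knockout cells read 6.22, 5.85 and 5.32, then 6.0, 5.65 and 5.36, then 6.11, 5.79 and 5.33, then 6.12, 5.86 and 6.02. The knockout arrays were spread widely, but the lowest of them exceeded the highest parental array. The mean difference was 1.00 (SE 0.106, limma adjusted p = 2.39e-09), a 1.99-fold rise.

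ERO1A, an oxidase that forms disulphide bonds in the endoplasmic reticulum, moved the other way. It read 8.31, 8.36 and 8.04 in parental cells at 0 Gy and 4 h, 8.27, 8.43 and 8.29 at 0 Gy and 24 h, 8.16, 8.05 and 8.03 at 2 Gy and 4 h, and 8.40, 8.11 and 8.21 at 2 Gy and 24 h. Knockout cells read 7.58, 7.65 and 7.27, then 7.85, 7.84 and 7.75, then 7.57, 7.60 and 7.46, then 7.58, 7.98 and 7.69. The lines did not overlap, although 7.98 and 8.03 came close. ERO1A fell by a mean of 0.57 (SE 0.055, limma adjusted p = 2.59e-10).

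P4HA1, a subunit of collagen prolyl hydroxylase, rose by 0.37 (SE 0.063, limma adjusted p = 1.38e-05), from a median of 7.53 to 7.91. It was called at 24 h, by 0.44 at both doses. At 0 Gy, leaving out parental replicate 1 (0.40), knockout replicate 1 (0.40) or knockout replicate 3 (0.42) ended the call. At 2 Gy, leaving out parental replicate 2 (0.28) or knockout replicate 1 (0.35) did so. With the replicate number as a block P4HA1 was also called at 0 Gy and 4 h (0.31, adjusted p = 0.0213). Its paralog P4HA2 differed by 0.10 and was not called.

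KDM3A, a histone demethylase, rose by 0.23 (SE 0.083, limma adjusted p = 0.0337), and the call was lost on leaving out any of 10 of the 24 arrays (0.19 to 0.22). Its differences by condition ran from −0.03 to 0.48 (F test of variation, unadjusted p = 0.217). The largest, at 2 Gy and 4 h, was not called. It passed without the intensity trend (limma adjusted p = 0.0365) and with array weights (0.0492), the replicate block (0.0383), no dim genes (0.0412), centring (0.0386) or quantile normalization (0.0352). BNIP3L, a mitophagy receptor, rose by 0.15 (SE 0.040, limma adjusted p = 0.00353). Its relative BNIP3 differed by 0.08 and was not called. NDRG1 (−0.04), ANKRD37 (−0.06) and ANGPTL4 (0.11), all common readouts of hypoxia, were not called. ANGPTL4, a secreted inhibitor of lipoprotein lipase, was near background.

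The position of the genes was examined because some of them are neighbours of other genes that differ between the lines. For each member, up to 10 measured genes above background on either side were taken in RefSeq order. HK1, P4HA1, PGAM1 and BNIP3 lie on chromosome 10, and the median line differences of their neighbours were 0.21, 0.33, 0.19 and 0.22. Among the 20 neighbours of each, 12, 13, 9 and 11 were called higher and 0, 0, 0 and 1 lower. Of all genes, 15.8% were called higher and 14.6% lower. Of genes above background on all arrays, 39.4% were called in either direction. P4HA1 (0.37) and PGAM1 (0.31) thus rose by amounts near those of their neighbours, while HK1 (1.49) rose by far more. PFKM, on chromosome 12, had neighbours with a median of −0.26, of which 13 of 20 were called lower. The part of a regional difference in these values was not tested.

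The remaining large differences were far from the median of their neighbours. The neighbours' median was −0.09 for ADM, 0.08 for SLC2A3, 0.06 for ENO2, −0.02 for ERO1A and −0.02 for PFKP. Of 20 neighbours each, 9 were called higher and 3 lower for SLC2A3, and 7 higher and 1 lower for ENO2. SLC2A3 and ENO2 are each among the neighbours of the other, so these counts include both and share genes. The counts called higher and lower were 3 and 4 for ADM, 4 and 4 for ERO1A and, of 18 neighbours, 2 and 0 for PFKP. The shares of all genes were 15.8% and 14.6%. SLC2A3 and ENO2 lie close together on chromosome 12 and moved in opposite directions.

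**Figure D4:**
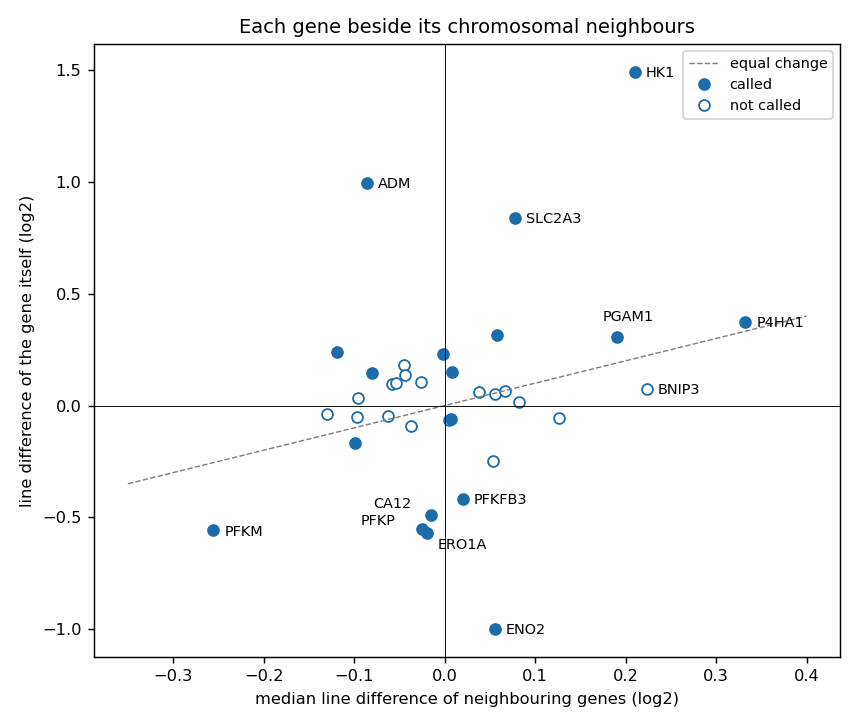
Line difference of each of 36 genes (log2, y axis) against the median line difference of up to 20 neighbouring genes (log2, x axis), with a dashed line of equal change. P4HA1 lies near the dashed line and PGAM1 a little above it, with HK1, ADM, SLC2A3 and ENO2 far from it.

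The second question was whether 2 Gy changed these genes. No member was called in any of the 4 irradiation comparisons with limma. Of all genes, 0.226% were called in parental cells at 4 h, 0.0678% at 24 h and 0% in knockout cells at either time. In parental cells, 6 of 36 members had an unadjusted p below 0.05 at 4 h (6.69% of all genes) and 1 at 24 h (6.93%). In knockout cells, 0 did so at 4 h (3.30%) and 3 at 24 h (4.16%). The lowest adjusted p was that of HIF1A in parental cells at 4 h, where group means were 8.79 at 0 Gy and 8.43 at 2 Gy (−0.35, SE 0.11, limma adjusted p = 0.337). The values were 8.84, 8.74 and 8.77 at 0 Gy against 8.62, 8.17 and 8.50 at 2 Gy. Without replicate 2 at 2 Gy the difference was −0.23, and with the replicate number as a block it was called (limma adjusted p = 0.0376).

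Of the other members with an unadjusted p below 0.05 in parental cells at 4 h, PFKP differed by 0.30, ENO2 by 0.37, BNIP3 by 0.21, EGLN1 by −0.33 and KDM3A by −0.35. The responses of the 2 lines were also compared directly. No member and 0% of all genes were called for that difference with limma at 4 h or 24 h. An unadjusted p below 0.05 was found for 3 members at 4 h (2.61% of all genes) and 0 at 24 h (3.17%). The largest of the 3 was KDM3A, with a difference of 0.51 (SE 0.23).

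The third question was whether the genes changed between 4 h and 24 h. No member was called in any of the 4 comparisons with limma. Of all genes, 0.695% were called in parental cells at 2 Gy, 0.0452% in knockout cells at 2 Gy and 0% at 0 Gy in either line. In parental cells, 3 of 36 members had an unadjusted p below 0.05 at 0 Gy (4.69% of all genes) and 5 at 2 Gy (8.80%). In knockout cells, 3 did so at 0 Gy (6.87%) and 4 at 2 Gy (7.94%). HIF1A at 2 Gy in parental cells differed by 0.32 (limma adjusted p = 0.215), and by 0.19 without replicate 2 at 4 h or 0.21 without replicate 1 at 24 h. With the replicate number as a block it was called (limma adjusted p = 0.0314). BNIP3L was the 1 member with an unadjusted p below 0.05 in 3 of the 4 comparisons: 0.20 in parental cells at 2 Gy and 0.25 and 0.18 in knockout cells at 0 Gy and 2 Gy. The parental difference fell to 0.13 without replicate 1 at 4 h and 0.12 without replicate 1 at 24 h. With array weights the parental difference was 0.30 and was called (limma adjusted p = 0.0189).

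The line difference itself did not vary detectably with dose or time. In an F test of its variation over the 4 conditions, 0 of 36 members were called with limma and 0 had an unadjusted p below 0.05 (2.92% of all genes). The precision limits these statements: for a comparison of 2 groups the 95% interval reached a median of 0.31 log2 units on either side, and 0.16 for the mean line difference.

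**Figure D5:**
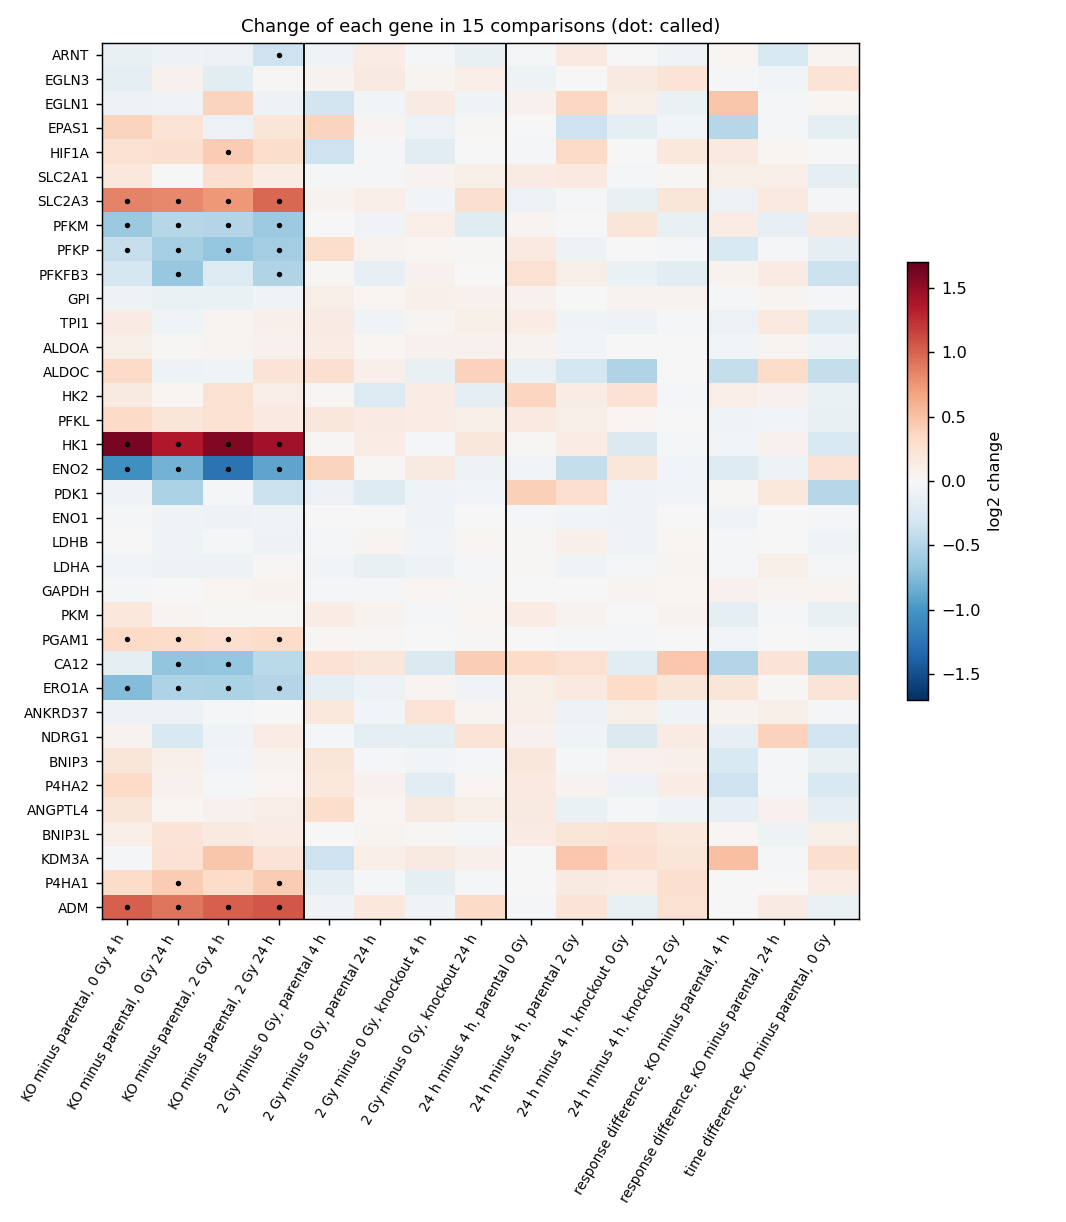
Log2 difference of 36 genes (rows) in the line, irradiation and time comparisons (columns), with colour from blue (lower) to red (higher). The line columns hold the strong colours, led by HK1 up to 1.62, while the irradiation and time columns are pale.

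Other genes of the same pathways were taken from a list of 105, of which 96 were measured. In the mean line difference 24 were higher and 22 lower (47.9% called, against 30.4% of all genes). This list too was chosen with earlier results known, so its share is no test of it. Among 36 further hypoxia targets 7 were higher and 12 lower, and among 26 further genes of glycolysis and pyruvate 6 were higher and 3 lower. Of 19 genes of gluconeogenesis, glycogen and the pentose phosphate pathway 6 were higher and 4 lower. Of 9 further transporters 2 were higher and 2 lower, and of 6 further oxygen-sensing genes 3 were higher and 1 lower.

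LOX, which crosslinks collagen, had the largest difference of these. It ran from 5.95 to 6.71 in parental and from 3.30 to 4.22 in knockout cells, where 8 of 12 arrays were above background, and differed by −2.53 (SE 0.094). AK4, a mitochondrial adenylate kinase, fell by 1.14 (SE 0.075), and SLC16A7, a transporter of pyruvate and lactate, fell by 1.06 (SE 0.11). TMEM45A rose by 1.01 (SE 0.10). GBE1, the glycogen branching enzyme, rose by 0.76 (SE 0.14) but was above background on only 4 of 12 parental arrays. CITED2, which competes with HIF for a shared coactivator, rose by 0.74 (SE 0.058).

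VEGFA, the vascular growth factor, was the only gene of the pathway lists called outside the line comparisons. In parental cells at 2 Gy it rose by 0.50 (SE 0.12, limma adjusted p = 0.0313) from 4 h to 24 h. In knockout cells at 2 Gy the difference was 0.51 (limma adjusted p = 0.109), which was not called. The parental call was lost without replicate 1 (0.44) or 3 (0.46) at 4 h, or without replicate 1 (0.45) or 2 (0.48) at 24 h. The mean line difference of VEGFA was −0.28 (SE 0.059).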

How the data were processed

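RNA from 24 samples was measured on Affymetrix whole-transcript arrays, per the labels' protocols. The deposited table holds a log2 signal for each probe set, made with RMA and Affymetrix Expression Console 1.1, per the submitters' processing notes. The set of arrays normalized jointly was not given in the sources used here. Of 24351 probe sets, 17709 have 1 gene symbol in the platform annotation. The probe set with the highest mean was kept for each gene, leaving 17687 genes, with no filter on dim genes.

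The limma package 3.58.1 (lmFit, trended eBayes; R 4.3.3) was used for all fits, taking a mean for each of the 8 groups from all 24 arrays. P-values were adjusted over all genes by the Benjamini-Hochberg method, and a gene was called below 0.05. Arrays carry no read depth, so their number limits the precision. On simulated data, 94.0% of genes changed by 0.5 were recovered for the mean line difference and 34.3% for the line difference at 0 Gy and 4 h.

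Members and pathway lists were chosen with earlier results of these data known. A member was named with every array's value where its called mean line difference reached 0.5, or where it was called for irradiation, time or an interaction. The others are given by range, level and count. Of other pathway genes, the 6 with the largest called line difference and any called outside the line comparisons were named. PGAM1 and HIF1A values by condition, the neighbour genes, SLC2A14 and PGAM4 were added after their values were seen.

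Same-numbered replicates deviated together (every correlation of their deviations above 0.1) in 4 of 12 comparisons: knockout minus parental at 0 Gy, 4 h (0.10 to 0.17) and at 2 Gy, 24 h (0.15 to 0.23), and 2 Gy minus 0 Gy in knockout cells at 4 h (0.15 to 0.27) and 24 h (0.13 to 0.24). The pairing comes from the replicate numbers in the sample titles and from these correlations. Alternatives tried were no intensity trend, array weights, the replicate number as a block, only the compared arrays, no dim genes, median centring, quantile normalization, the mean of probe sets, and each array left out. Leaving out both arrays of narrow signal range and the block with only the compared arrays were chosen after seeing the data.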

Additional observations from a re-analysis of the deposited data

How the results depend on the processing

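No value of a single member changed direction while called under any alternative run. Over the single-gene values under all alternatives, 6808 kept their status, called or not called, 67 gained a call and 73 lost one, and none reversed. Leaving out 1 array at a time, the members higher in the mean line difference numbered 8 to 10 and those lower 7 to 10. With the replicate block and only the compared arrays, 8 members were higher at 0 Gy and 4 h, in place of 4, while the share of all genes called higher went from 6.27% to 9.03%. At 2 Gy and 4 h, 10 were higher with array weights (8.19% of all genes) and 8 with the replicate block (8.56%), in place of 5 (6.87%). For the 2 Gy response of parental cells at 4 h, the replicate block called 1 member (HIF1A, limma adjusted p = 0.0376), in place of 0. The share of all genes called lower went from 0.226% to 0.339%, with 0.00565% higher. The block with only the compared arrays called 2 members (all genes: 0.0226% higher, 0.418% lower). For 24 h minus 4 h in parental cells at 2 Gy, array weights called 1 member (BNIP3L, 0.30, adjusted p = 0.0189), in place of 0. The replicate block (HIF1A, adjusted p = 0.0314) and the block with only the compared arrays (HIF1A, adjusted p = 0.0276) also called 1 each. The share of all genes called higher went from 0.645% to 1.89% with array weights. With the block it was 1.4%, and with the block and only the compared arrays 1.92%. In those 2 comparisons not every correlation of same-numbered replicates exceeded 0.1 (0.09 to 0.41 and 0.09 to 0.48). The same held between the lines at 2 Gy and 4 h (0.08 to 0.33). Whether the samples are paired there was not settled. Where every correlation exceeded 0.1, the block over all arrays changed no call of a member other than those given beside HIF1A and P4HA1. With only the compared arrays, the block also called PFKL (0.33, adjusted p = 0.0234) and PKM (0.17, adjusted p = 0.0142) at 0 Gy and 4 h.

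Counts of the other pathway genes moved more. Brackets give the share of all genes called in the same direction. At 0 Gy and 4 h, 12 were higher with the block and only the compared arrays (9.03%), in place of 7 (6.27%). Leaving out 1 array gave 4 to 8. At 0 Gy and 24 h, 5 were higher without the intensity trend (5.74%) and 6 with only the compared arrays (6.82%), in place of 11 (6.47%). Leaving out 1 array gave 4 to 8 higher and 6 to 10 lower. At 2 Gy and 4 h, array weights gave 9 higher (8.19%) and 12 lower (7.17%), in place of 5 higher (6.87%) and 7 lower (5.13%). The replicate block gave 13 lower (6.85%), and leaving out both narrow arrays gave 3 higher (5.08%). Leaving out 1 array gave 3 to 7 higher. At 2 Gy and 24 h, 3 were higher without both narrow arrays (5.03%), in place of 6 (6.29%). Leaving out 1 array gave 3 to 8 higher and 6 to 10 lower. For 24 h minus 4 h in parental cells at 2 Gy, 1 was called (0.645% of all genes higher, 0.0509% lower). Calls fell to 0 without the intensity trend (0.294%, 0.0113%), with only the compared arrays (0.345%, 0.017%) or without both narrow arrays (0.277%, 0.00565%). Array weights called 4 (1.89%, 0.548%). The replicate block called 3, with all (1.4%, 0.26%) or only the compared arrays (1.92%, 0.464%). In each of these fits the shares of all genes moved the same way as the count. Leaving out 1 array gave 0 to 2. In knockout cells at 0 Gy, the block with only the compared arrays called 1 (0.204% of all genes higher, 0.181% lower), in place of 0 (0%). At 2 Gy the block called 2, with all (0.373% higher, 0.147% lower) or only the compared arrays (0.379%, 0.141%), in place of 0 (0.0452% higher). The causes were not tested, beyond the smaller number of arrays in the fits that leave arrays out.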
